A study of Mus musculus with 36 samples.

Results

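Keratins are the intermediate filament proteins of epithelial cells, and 43 mouse keratin genes were followed here over 11 groups of expression arrays. The genes were taken by name, and each was read from its brightest probe set, by the mean of the 36 arrays. Of the 43 genes, 36 had a probe set of their own in the platform annotation, among 17097 genes in all. Of those 36, 29 lay above the lowest 25% of genes by mean level and were tested with the other genes above that limit, 12823 in all. Krt1, Krt2, Krt77, Krt20, Krt33a, Krt86 and Krt12 were below the limit of 5.19 log2. Krt76, Krt17, Krt32, Krt82, Krt85, Krt72 and Krt24 were not analysed here.

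The RNA came from cells labelled the neural fraction of the stroma of human oral carcinoma xenografts, grown orthotopically in NOD-SCIDγ (NSG) mice, a strain that lacks most lymphocytes. The tumour cells were VDH15 in 2 experiments (VDH15-1 and VDH15-2) and SCC25 in 1. They carried shCD36, a short hairpin RNA against the fatty acid transporter CD36, or PLKO, a non-targeting hairpin, so that the hairpin was in the human cells and not in the mouse cells measured. Hosts received a diet rich in palmitic acid (PA), a diet rich in oleic acid (OA) or a control diet. VDH15-1 held PLKO tumours on PA, OA and control diet with 4 arrays each, while SCC25 and VDH15-2 each held shCD36 PA, shCD36 control, PLKO PA and PLKO control groups with 3 arrays each. Each group was 1 biological replicate, and its arrays were labelled technical replicates. The number of mice or tumours behind a group is not given in the labels. The arrays carry mouse probes, and hybridisation of RNA from the human tumour cells to them was not tested.

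A type I keratin pairs with a type II keratin to build the filament, and the pair in use tells the layer and the tissue. Krt5 and Krt14 make up the basal layer of stratified epithelia, cells that leave it make Krt1 and Krt10 in the epidermis or Krt4 and Krt13 in the mucosa of the mouth and oesophagus, and wounded or activated keratinocytes add Krt6a, Krt6b, Krt16 and Krt17. Hair shafts, nails and the filiform papillae of the tongue are built from hard keratins rich in cysteine, Krt8 and Krt18 belong to simple epithelia, and Krt71 to Krt75 with Krt25 and Krt27 to the inner root sheath and companion layer of the hair follicle.

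Levels are log2 intensities. They were compared within a gene and within an experiment, because a probe set's level cannot be set against another's and the deposited values behave as already adjusted between experiments. Differences across experiments came from limma fitted to the 11 group averages, and a gene was called at a Benjamini-Hochberg adjusted p under 0.05 over all genes tested. Within an experiment a group was 1 biological replicate, so differences there are given without a p, with a statement of whether the arrays of both groups overlap. Differences between bulk samples cannot tell fewer cells of a type from less RNA per cell.

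On a palmitate diet, PLKO tumours carried lower levels of 6 of the 29 tested keratins and higher levels of none, against a control diet. These were the mucosal pair Krt4 and Krt13, the suprabasal Krt10, the hair and tongue keratin Krt84, and Krt23 and Krt80. The basal pair Krt5 and Krt14 differed by less than its error, at levels near the top of the intensity scale. Of all 12823 genes tested, 3.27% were called lower in the same comparison, and 468 genes were called higher. Of the 29 keratins, 25 had a log2 fold change below 0, with a median of -0.35, against a median of -0.03 over all genes.

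Promoters are shown first, as 250 bases before to 50 after a start listed for the gene (GRCm38.p6). How far each listed start, that of Krt14 included, lies from the outer end of the gene was not checked. Krt84, Krt13, Krt10 and Krt23 are shown because they were called lower on PA in PLKO tumours, Krt36 because its difference was the largest of all, and Krt14 as a basal member with a difference near 0. Of the 36 keratins with a probe set, 24 matched an entry, and Krt4, Krt35 and Krt80 are named only. Capitals mark TATAAA, the letters of a TATA box, on either strand and at any position, or TGANTCA, the site of AP-1 factors, where N is any base.
Krt84, chr15:101532771-101533070, minus strand: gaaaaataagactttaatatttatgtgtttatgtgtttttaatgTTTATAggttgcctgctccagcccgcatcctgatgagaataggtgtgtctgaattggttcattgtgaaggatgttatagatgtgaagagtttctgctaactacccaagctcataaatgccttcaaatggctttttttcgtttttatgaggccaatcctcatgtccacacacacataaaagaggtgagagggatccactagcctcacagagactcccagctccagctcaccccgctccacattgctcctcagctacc
Krt36, chr11:100105577-100105876, minus strand: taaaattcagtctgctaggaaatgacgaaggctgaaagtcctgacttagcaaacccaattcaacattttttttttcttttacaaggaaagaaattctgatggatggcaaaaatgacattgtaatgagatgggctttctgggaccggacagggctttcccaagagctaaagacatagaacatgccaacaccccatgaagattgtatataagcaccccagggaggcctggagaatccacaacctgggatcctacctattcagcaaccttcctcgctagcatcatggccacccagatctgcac
Krt13, chr11:100121517-100121816, minus strand: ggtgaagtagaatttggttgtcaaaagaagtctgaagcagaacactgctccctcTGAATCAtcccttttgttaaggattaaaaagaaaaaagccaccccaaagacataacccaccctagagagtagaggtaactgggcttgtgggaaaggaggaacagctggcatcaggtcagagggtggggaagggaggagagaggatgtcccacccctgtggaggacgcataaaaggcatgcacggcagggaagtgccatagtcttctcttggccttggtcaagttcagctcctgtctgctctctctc
Krt10, chr11:99389315-99389614, minus strand: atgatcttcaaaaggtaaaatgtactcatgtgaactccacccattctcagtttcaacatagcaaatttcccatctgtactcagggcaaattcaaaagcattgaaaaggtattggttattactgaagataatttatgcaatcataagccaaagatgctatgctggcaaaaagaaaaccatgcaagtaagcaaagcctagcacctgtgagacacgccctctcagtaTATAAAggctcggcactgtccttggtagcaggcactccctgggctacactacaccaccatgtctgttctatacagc
Krt23, chr11:99493071-99493370, minus strand: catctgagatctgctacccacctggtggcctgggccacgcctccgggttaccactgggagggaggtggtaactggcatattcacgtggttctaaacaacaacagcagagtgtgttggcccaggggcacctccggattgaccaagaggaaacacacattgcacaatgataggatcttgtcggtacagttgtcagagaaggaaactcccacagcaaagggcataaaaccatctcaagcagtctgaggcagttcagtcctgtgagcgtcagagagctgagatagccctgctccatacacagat
Krt14, chr11:100205981-100206280, minus strand: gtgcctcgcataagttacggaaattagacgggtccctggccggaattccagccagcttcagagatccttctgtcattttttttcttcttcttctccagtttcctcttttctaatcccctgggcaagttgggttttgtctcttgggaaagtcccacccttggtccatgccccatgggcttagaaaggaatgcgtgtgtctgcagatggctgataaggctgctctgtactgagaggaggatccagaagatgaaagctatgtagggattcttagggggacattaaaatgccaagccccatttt
TATAAA stood in 12 of the 24 keratin windows and in 13.6% of 32851 RefSeq promoters of the same length. Those 12 included the windows of Krt84 and Krt10, which were called lower, and those of Krt31, Krt33b and Krt34, whose log2 fold changes were near 0. The Krt84 match was the reverse complement and lay far upstream of the listed start, while that of Krt10 lay close to it. TGANTCA stood in 1 keratin window, that of Krt13, against 7.81% of all promoters. GCCNNNGGC, a site of AP-2 factors searched on both strands, stood in 2 keratin windows, those of Krt7 and Krt18, against 16.6% of all promoters. Matches of different motifs cannot share a base, while TATAAA and its reverse complement can, and a match describes only the letters of a window.

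**Figure D1:**
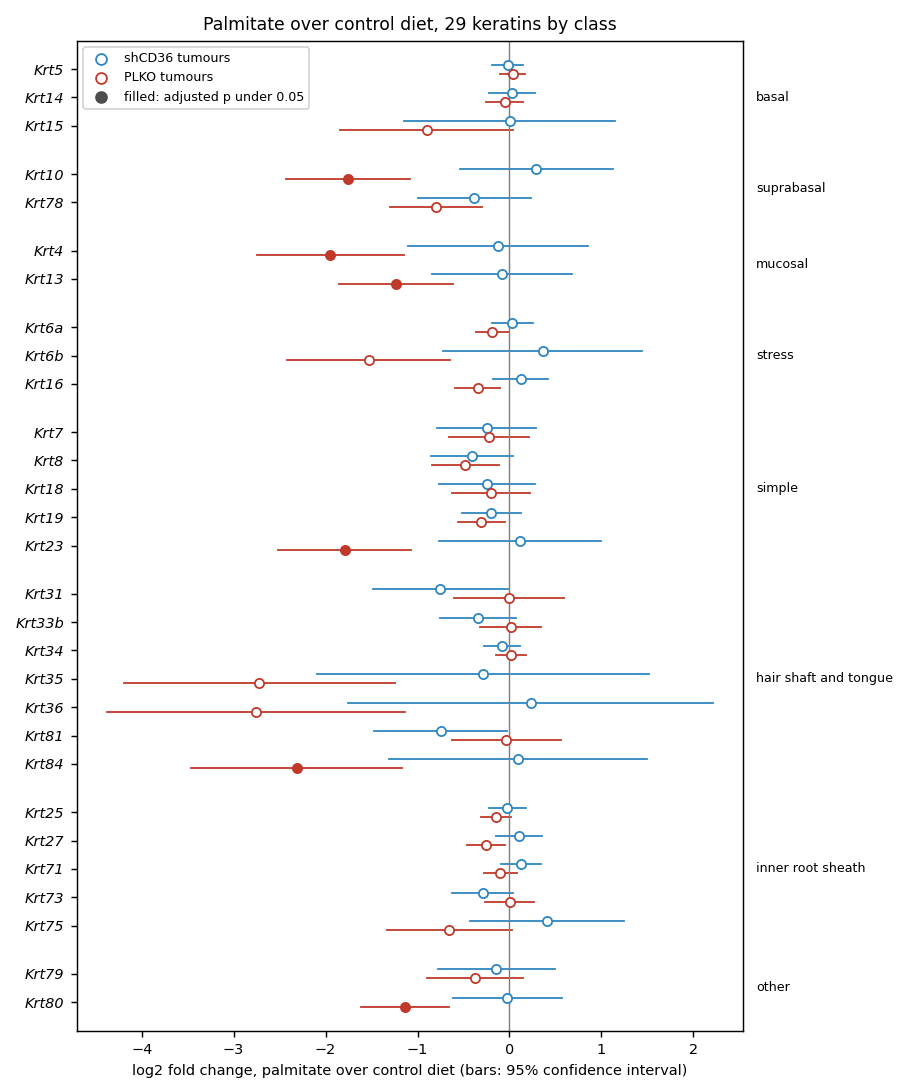
Log2 fold change of PA over control diet (horizontal axis) for the 29 tested keratins, grouped by class, in shCD36 tumours (blue, n = 2 biological replicates) and in PLKO tumours (red, n = 3), with bars for the 95% confidence interval and filled points where the adjusted p was under 0.05. The 6 filled points are all in PLKO tumours and below 0, while Krt5, Krt14, Krt31, Krt33b, Krt34 and Krt81 sit near 0 there.

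Before the results by class, 3 arrays need naming, because they stood apart from the others of their groups over all genes. On the first principal component, which held 44.5% of the variance, replicates 1 and 2 of VDH15-1 PLKO PA lay at 53.2 and 50.1 and replicate 1 of VDH15-2 PLKO PA at 42.6. The other PLKO PA arrays lay between 13.8 and 23.2. Without these 3 arrays limma called 2 keratins lower, Krt10 and Krt80, and without VDH15-2 PLKO PA replicate 1 alone it called the same 2. Without the SCC25 experiment it called 0, and without VDH15-2 also 0.

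Krt5, the type II keratin of basal cells, varied less over the 36 arrays than any other of the 36 keratins with a probe set, from 12.43 to 12.62. It averaged 12.57 ± 0.02 in PLKO PA groups and 12.54 ± 0.01 in PLKO control groups (SD, n = 3 each), a log2 fold change of 0.04 ± 0.06 (SE; adjusted p = 0.746, limma). Krt14, its type I partner, averaged 12.54 ± 0.10 in PLKO PA groups and 12.59 ± 0.10 in PLKO control groups (SD, n = 3 each; log2 fold change -0.05 ± 0.08, adjusted p = 0.763, limma). Only 19 genes had a higher mean than Krt5 and 15 than Krt14, with 37 above Krt6a and 120 above Krt16. The highest mean of any gene was 13.16, and the highest value of any probe set on any array 14.83. Whether differences are compressed at that end of the scale was not tested.

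Within VDH15-1, Krt14 and Krt15 varied more over the PA arrays than Krt5 did. Krt14 had 12.12, 12.28, 12.63 and 12.69 on the PA arrays and 12.61, 12.71, 12.77 and 12.74 on the control arrays. The lower 2 of the PA values belong to the 2 arrays that stood apart. Krt15, a keratin of basal cells and of the hair follicle bulge, had 6.98, 7.04, 8.28 and 8.26 on the PA arrays, against 9.94, 9.75, 10.05 and 9.87 on the control arrays of VDH15-1. The groups did not overlap, and the difference was -2.26. In VDH15-2, PLKO PA arrays had 8.57, 8.31 and 8.51 for Krt15 and PLKO control arrays 8.82, 9.05 and 9.15, also without overlap. In SCC25 the difference was 0.10 with overlapping arrays, at 8.93, 8.79 and 8.85 in PLKO PA and 8.72, 8.72 and 8.82 in PLKO control. Over the 3 experiments Krt15 was not called (log2 fold change -0.90 ± 0.39, SE; adjusted p = 0.203, limma). Over the 11 group averages, Krt5 and Krt14 correlated with a Pearson r of -0.31 and a Spearman rho of -0.15. This and the correlations below are descriptions, since the averages share experiments and the adjustment made before deposit.

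Suprabasal keratins passed the level limit for 2 of 5 members, and 1 of them was called lower on PA. Krt10, the type I keratin of differentiating epidermal cells, was 3.38-fold lower in PLKO PA (log2 fold change -1.76 ± 0.28, SE; 95% confidence interval -2.44 to -1.08; adjusted p = 0.0261, limma). In VDH15-1 its levels were 5.41, 5.67, 5.46 and 5.52 on PA arrays and 6.59, 6.11, 6.75 and 7.29 on control arrays. In SCC25 PLKO tumours they were 4.75, 4.65 and 6.11 on PA arrays and 7.46, 7.61 and 7.28 on control arrays. In VDH15-2 PLKO tumours they were 3.66, 5.84 and 5.42 on PA arrays and 6.58, 7.25 and 6.56 on control arrays. Every PA array was below every control array of its experiment, and this also held with VDH15-2 PLKO PA replicate 1 left aside, where the difference of means was -1.17 against -1.82 with it. 

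Krt78, a type II keratin, averaged 7.71 ± 0.30 in PLKO PA and 8.51 ± 0.33 in PLKO control (SD, n = 3 each) and was not called (log2 fold change -0.80 ± 0.21, SE; adjusted p = 0.0669, limma). It had 7.50, 7.52 and 7.31 in SCC25 PLKO PA and 9.02, 8.82 and 8.69 in SCC25 PLKO control, with no overlap, but the arrays overlapped in both VDH15 experiments. Krt1, the partner of Krt10, was below the level limit and not tested. Its group averages followed those of Krt10 over the 11 groups (Pearson r = 0.80, Spearman rho = 0.76), at 4.61 ± 0.14 in PLKO PA and 5.07 ± 0.17 in PLKO control (SD, n = 3 each). Krt2 and Krt77, of the upper epidermis and of sweat ducts, averaged 3.89 ± 0.01 and 4.99 ± 0.08 in PLKO PA and 3.95 ± 0.08 and 4.96 ± 0.09 in PLKO control.

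Both measured mucosal keratins were called lower on PA. Krt4 was 3.86-fold lower (log2 fold change -1.95 ± 0.34, SE; 95% confidence interval -2.75 to -1.15; adjusted p = 0.0288, limma), and Krt13 was 2.35-fold lower (-1.23 ± 0.26, SE; -1.86 to -0.61; adjusted p = 0.0426, limma). Krt4 had 6.81, 5.73, 9.71 and 11.98 on the PA arrays of VDH15-1 and 11.43, 12.65, 10.21 and 12.32 on its control arrays. These groups overlapped, since PA replicate 4 exceeded control replicates 1 and 3. In SCC25 PLKO tumours Krt4 had 8.97, 9.39 and 9.35 on PA arrays and 10.99, 10.90 and 10.90 on control arrays, clearly apart. In VDH15-2 PLKO tumours it had 7.92, 10.44 and 10.44 on PA arrays and 10.71, 10.62 and 10.62 on control arrays. There the arrays did not overlap, but the difference of -1.05 became -0.21 without PA replicate 1.

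Krt13 had 9.81, 8.23, 10.82 and 11.42 on the PA arrays of VDH15-1 and 11.92, 12.59, 11.79 and 12.37 on its control arrays, without overlap. In SCC25 PLKO tumours it had 10.40, 10.70 and 10.54 on PA arrays and 11.69, 11.63 and 11.59 on control arrays. In VDH15-2 PLKO tumours it had 9.99, 11.39 and 11.30 on PA arrays and 11.40, 11.45 and 11.36 on control arrays. The arrays were apart in SCC25 but overlapped in VDH15-2, where the difference of -0.51 became -0.06 without PA replicate 1. Without the 3 arrays that stood apart, the log2 fold changes were -0.90 for Krt4 and -0.73 for Krt13, and neither was called (adjusted p = 0.0947 and 0.0832, limma). The averages of the pair tracked each other over the 11 groups (Pearson r = 0.97, Spearman rho = 0.96). In VDH15-1 the PA difference of Krt4 was -1.43 within scan batch 2 and -4.76 within scan batch 3, and that of Krt13 was -1.24 and -2.96 in the same order. Each batch held 2 PA arrays that lay far apart, for Krt4 at 6.81 and 11.98 in batch 2 and at 5.73 and 9.71 in batch 3, so that batch and single arrays cannot be told apart. Further probe sets of these genes had the same direction, with a log2 fold change of -2.29 for the second of Krt4, and of -1.13 and -0.86 for the other two of Krt13.

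**Figure D2:**
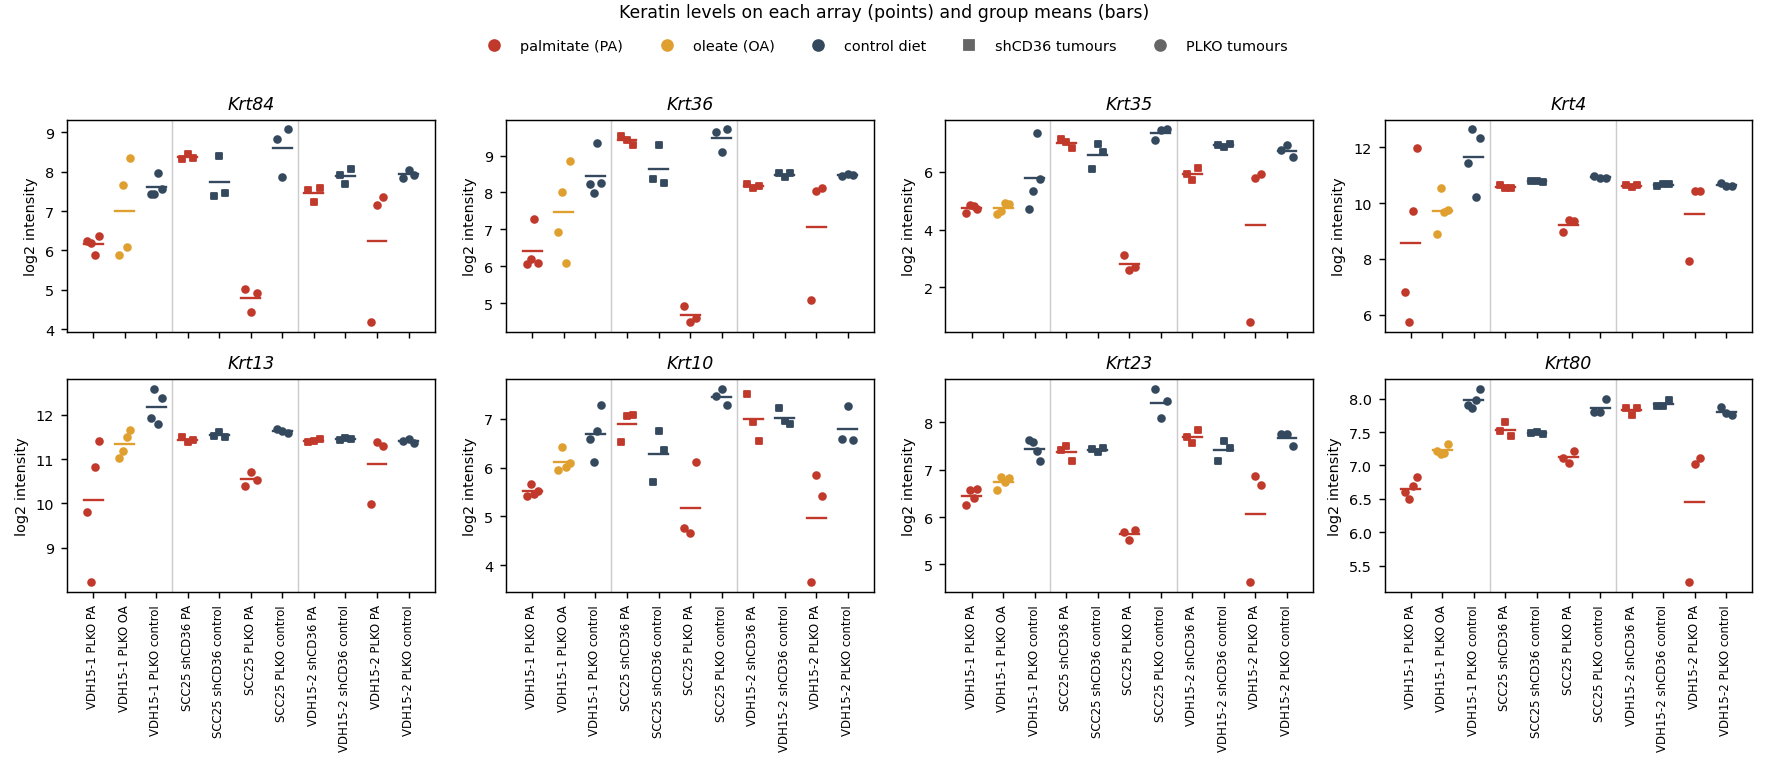
Log2 intensity (vertical axis) of Krt84, Krt36, Krt35, Krt4, Krt13, Krt10, Krt23 and Krt80 on each of the 36 arrays (points) by group (horizontal axis), with the group mean as a bar; squares are shCD36 tumours and circles PLKO tumours, red is PA, yellow OA and dark blue control diet. SCC25 PLKO PA arrays sit below all other SCC25 arrays for Krt84, Krt36, Krt35, Krt4, Krt13, Krt23 and Krt80, and VDH15-2 PLKO PA replicate 1 is the low point of its group in every panel.

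Stress keratins had lower means on PA, and none was called. Krt6b, a keratin of activated and wounded keratinocytes, had the largest difference, with a log2 fold change of -1.53 ± 0.37 (SE; adjusted p = 0.0572, limma). Krt16 had -0.35 ± 0.10 (adjusted p = 0.0889, limma) and Krt6a -0.19 ± 0.08 (adjusted p = 0.176, limma). Krt6b had 7.71, 7.79, 10.68 and 10.91 on the PA arrays of VDH15-1 and 11.60, 11.87, 11.46 and 11.39 on its control arrays. In SCC25 PLKO tumours it had 9.04, 9.12 and 9.87 on PA arrays and 11.40, 11.32 and 11.27 on control arrays. In VDH15-2 PLKO tumours it had 10.16, 10.46 and 10.47 on PA arrays and 10.74, 10.61 and 10.66 on control arrays. The arrays were apart in all 3 experiments, and the difference was -2.31, -1.99 and -0.31 in that order.

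Krt16 had 11.04, 11.21, 12.00 and 12.06 on the PA arrays of VDH15-1 and 12.23, 12.19, 12.23 and 12.19 on its control arrays. In SCC25 PLKO tumours it had 11.73, 11.73 and 11.74 on PA arrays and 12.04, 12.06 and 12.02 on control arrays. In VDH15-2 PLKO tumours it had 11.73, 11.95 and 11.88 on PA arrays and 11.95, 11.99 and 11.92 on control arrays, which overlapped, with a difference of -0.10. Without the 3 arrays that stood apart, the log2 fold change of Krt16 over the experiments was -0.17. The 2 low PA values of VDH15-1 for Krt16 and for Krt6b belong to the 2 arrays that stood apart. Krt6a, the partner of Krt16, had 11.87, 11.91, 12.38 and 12.46 on the PA arrays of VDH15-1 and 12.46, 12.53, 12.57 and 12.56 on its control arrays. Krt6a and Krt16 followed each other over the 11 group averages (Pearson r = 0.95, Spearman rho = 0.91). Krt6a and Krt6b are near-identical copies, and cross-hybridisation between their probe sets was not tested.

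**Figure D3:**
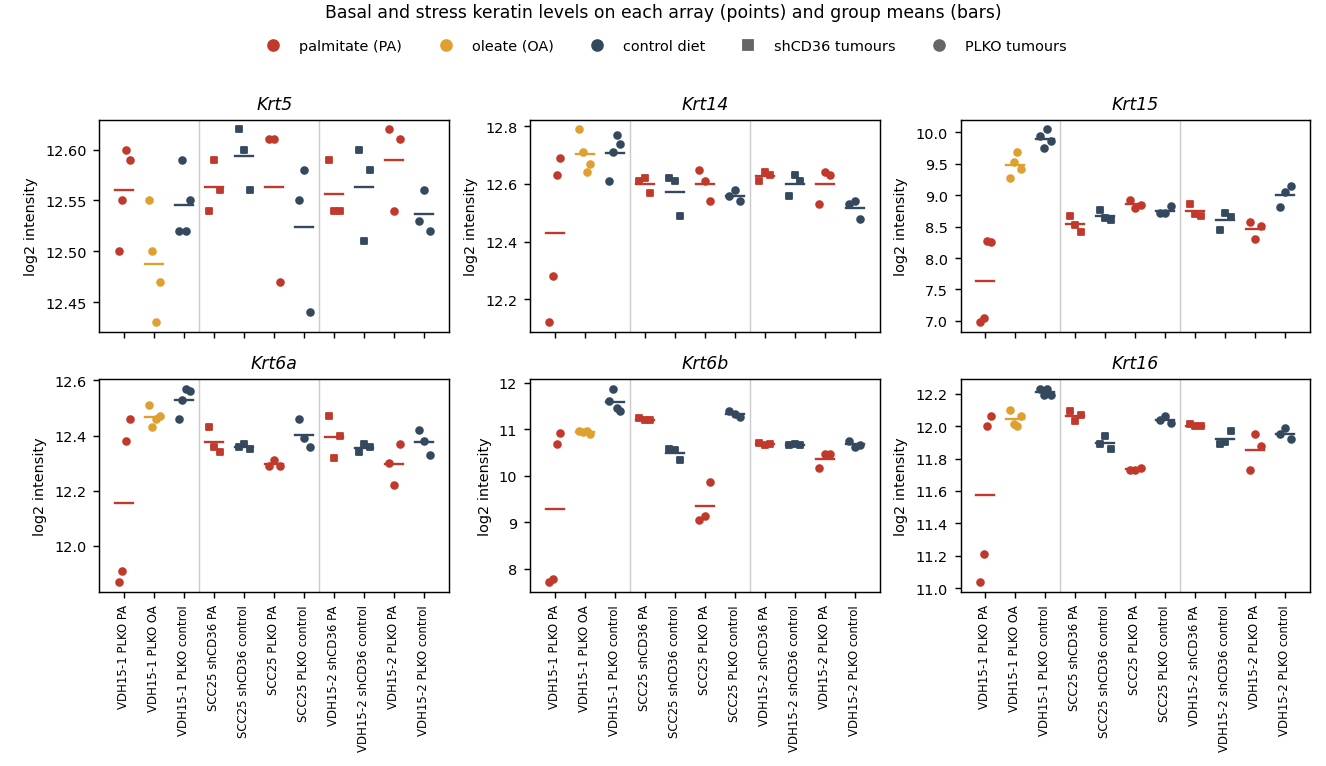
Log2 intensity (vertical axis) of the basal keratins Krt5, Krt14 and Krt15 and the stress keratins Krt6a, Krt6b and Krt16 on each array (points) by group (horizontal axis), with the group mean as a bar; squares are shCD36 and circles PLKO tumours. Krt5 stays between 12.43 and 12.62 throughout, while Krt15, Krt6b and Krt16 are lowest on VDH15-1 PLKO PA replicates 1 and 2.

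Of the 7 tested hair shaft and tongue keratins, 1 was called lower, and they split into 3 with large differences and 4 with differences near 0, so that the class median of -0.04 describes neither. Krt84, a type II hard keratin of the tongue, was 4.98-fold lower on PA (log2 fold change -2.32 ± 0.48, SE; 95% confidence interval -3.46 to -1.17; adjusted p = 0.0404, limma). Krt36 and Krt35, type I hard keratins, had the largest log2 fold changes of all 29 members, at -2.76 ± 0.68 and -2.72 ± 0.62 (SE), and missed the threshold (adjusted p = 0.0595 and 0.0502, limma).

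SCC25 held the largest of these differences. Krt36 had 4.93, 4.48 and 4.59 in SCC25 PLKO PA and 9.65, 9.10 and 9.72 in SCC25 PLKO control, a difference of -4.83. Krt35 had 3.13, 2.62 and 2.71 in SCC25 PLKO PA and 7.13, 7.46 and 7.48 in SCC25 PLKO control, a difference of -4.53. Krt84 had 5.02, 4.44 and 4.91 in SCC25 PLKO PA and 8.82, 7.88 and 9.08 in SCC25 PLKO control, a difference of -3.81. No PA array came near a control array for any of the 3. All these PLKO PA values were below the level limit of 5.19 log2, so the size of the differences depends on low signal. Krt35 passed that limit by its mean over all arrays, 5.66, but averaged 4.74, 2.82 and 4.17 in PLKO PA of VDH15-1, SCC25 and VDH15-2.

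The VDH15 experiments had the same direction with smaller or less even differences. In VDH15-2, Krt84 had 4.17, 7.16 and 7.37 in PLKO PA and 7.84, 8.05 and 7.92 in PLKO control. Krt36 had 5.08, 8.03 and 8.12 there in PLKO PA and 8.46, 8.51 and 8.47 in PLKO control, and Krt35 had 0.78, 5.78 and 5.95 in PLKO PA and 6.76, 6.95 and 6.51 in PLKO control. Replicate 1 of PLKO PA was the low array for all 3, and without it the difference was -0.67 in place of -1.70 for Krt84, -0.40 in place of -1.40 for Krt36 and -0.88 in place of -2.57 for Krt35. In VDH15-1, Krt84 had 6.24, 6.20, 5.88 and 6.36 on PA arrays and 7.43, 7.44, 7.98 and 7.57 on control arrays, without overlap. Krt36 had 6.07, 6.19, 7.28 and 6.08 on PA arrays and 8.23, 7.98, 9.33 and 8.25 on control arrays of VDH15-1, also without overlap. Krt35 overlapped in VDH15-1, at 4.58, 4.86, 4.82 and 4.71 on PA arrays and 4.73, 5.35, 7.37 and 5.74 on control arrays. Krt36 and Krt84 correlated over the 11 group averages with a Pearson r of 0.99 and a Spearman rho of 0.96. In the RefSeq gene order, Krt35, Krt36, Krt13 and Krt15 lie next to each other on chromosome 11, with log2 fold changes of -2.72, -2.76, -1.23 and -0.90. The PA difference of Krt36 in VDH15-1 was -2.71 within scan batch 2 and -1.38 within scan batch 3, and that of Krt84 was -1.41 and -1.46.

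The other tested hair keratins had differences near 0 between diets in PLKO tumours. Krt31, Krt33b, Krt34 and Krt81, keratins of the hair cortex and cuticle, had log2 fold changes of -0.0049, 0.012, 0.014 and -0.036 on PA. They varied within VDH15-2 in another way. Krt31 had 7.62, 6.35 and 6.89 in shCD36 control, and 7.08 on replicate 3 of PLKO PA, against 5.12 to 5.95 on the other PLKO arrays of that experiment. Krt81 had 7.96, 6.10 and 7.46 in shCD36 control and 7.36 on the same PLKO PA array, against 5.45 to 6.08 on the other PLKO arrays. Krt33b had 6.52, 5.59 and 5.99 in shCD36 control and 6.53 on that PLKO PA array. Replicates 1 and 3 of shCD36 control and that PLKO PA array were high for all 3 genes. Krt33a, which was below the level limit, had 6.29 on that PLKO PA array and 5.76, 4.95 and 5.32 in shCD36 control of VDH15-2, against 4.54 to 5.01 on the PLKO control arrays there. Krt86, also below the limit, was high elsewhere, with 6.49 on shCD36 PA replicate 2 of VDH15-2. Over the 11 group averages Krt31 and Krt81 correlated with a Pearson r of 0.99 and a Spearman rho of 0.95. In VDH15-1 and SCC25, Krt31 stayed between 5.75 and 6.20. The 8 tested genes of keratin-associated proteins, the matrix of the hair shaft, averaged 6.63, 6.37 and 6.27 on the shCD36 control arrays of VDH15-2 and 6.16, 6.26 and 6.34 on its PLKO PA arrays. Among them, Krtap13-1 had 7.2, 5.64 and 6.13 on those shCD36 control arrays and 4.25, 5.5 and 6.19 on those PLKO PA arrays. Its high arrays in VDH15-2 were thus those of Krt31 and Krt81, and no other of the 8 genes was highest on all 3 of these arrays. Krtap11-1 and Krtap12-1 were also highest on shCD36 control replicate 1 of VDH15-2, at 5.44 and 7.53. On replicate 3 of that group they had 4.95 and 7.07. Krtap3-1 had 6.52 and 6.36 on those replicates 1 and 3, but 6.01 on PLKO PA replicate 3 and 6.95 on shCD36 PA replicate 2. Hair keratins are close in sequence, and cross-hybridisation among Krt31, Krt33a, Krt33b and Krt34, or between Krt81 and Krt86, was not tested.

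**Figure D4:**
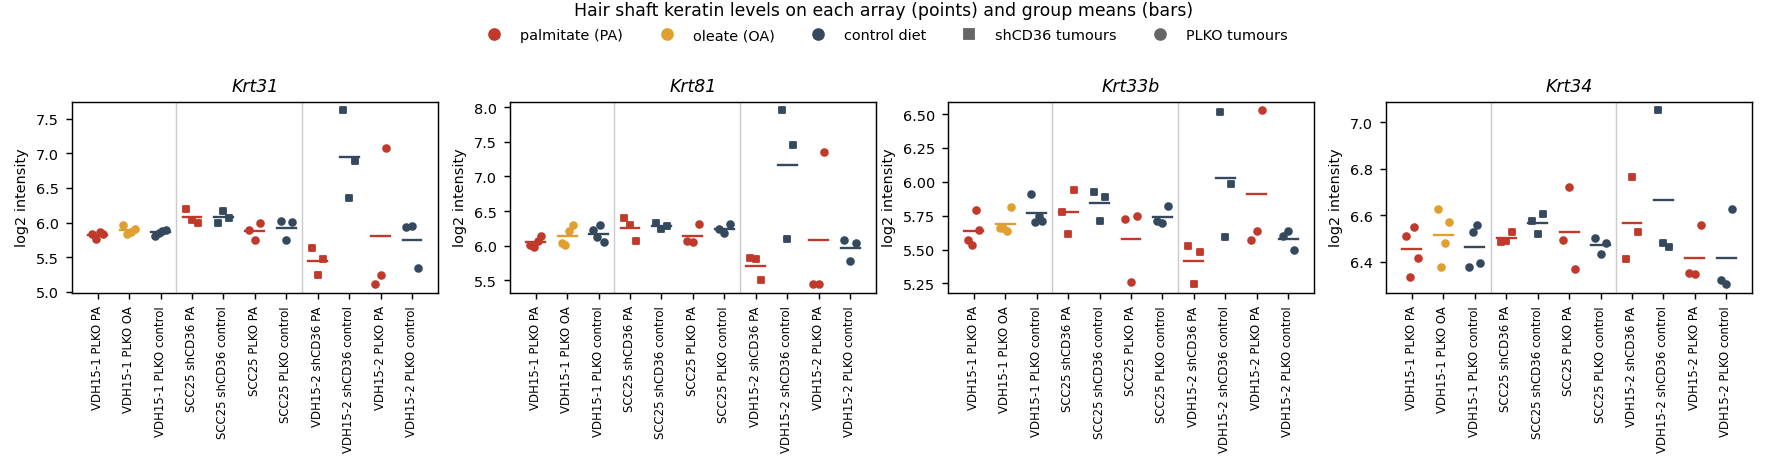
Log2 intensity (vertical axis, scaled per panel) of Krt31, Krt81, Krt33b and Krt34 on each array (points) by group (horizontal axis), with the group mean as a bar; squares are shCD36 and circles PLKO tumours. VDH15-2 shCD36 control replicates 1 and 3 and VDH15-2 PLKO PA replicate 3 are the high points of Krt31, Krt81 and Krt33b.

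Among keratins of simple epithelia, 1 of 5 tested members was called lower on PA. This was Krt23, a type I keratin, which was 3.46-fold lower in PLKO PA (log2 fold change -1.79 ± 0.30, SE; 95% confidence interval -2.51 to -1.07; adjusted p = 0.0280, limma). It had 5.69, 5.52 and 5.72 in SCC25 PLKO PA and 8.71, 8.09 and 8.44 in SCC25 PLKO control. In VDH15-1 it had 6.25, 6.56, 6.39 and 6.59 on PA arrays and 7.63, 7.58, 7.38 and 7.18 on control arrays. In VDH15-2 it had 4.63, 6.86 and 6.67 in PLKO PA and 7.76, 7.75 and 7.50 in PLKO control. The groups were apart in every experiment, and without VDH15-2 PLKO PA replicate 1 the log2 fold change was -1.55 with an adjusted p of 0.0582 (limma).

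The pair Krt8 and Krt18 was not called. Krt8, the type II keratin of simple epithelia, had 6.05, 6.30, 6.13 and 6.07 on PA arrays of VDH15-1 and 6.74, 6.89, 7.15 and 6.38 on its control arrays. Krt18, its type I partner, had 6.29, 6.84, 6.45 and 7.10 on the same PA arrays and 7.53, 7.31, 7.54 and 7.41 on the control arrays. Both were apart in VDH15-1 and overlapped in SCC25 and VDH15-2, with log2 fold changes over the experiments of -0.48 ± 0.15 for Krt8 and -0.20 ± 0.18 for Krt18 (SE; adjusted p = 0.103 and 0.528, limma). The value for Krt8 was -0.32 without VDH15-2 PLKO PA replicate 1. Their group averages correlated less than those of Krt4 and Krt13 or of Krt6a and Krt16 (Pearson r = 0.43, Spearman rho = 0.35). Krt7 and Krt19, of ducts and glands, had log2 fold changes of -0.22 ± 0.18 and -0.31 ± 0.11 (SE; adjusted p = 0.499 and 0.136, limma). Krt20, of the gut, averaged 4.74 ± 0.08 in PLKO PA and 4.85 ± 0.13 in PLKO control (SD, n = 3 each).

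Inner root sheath and companion layer keratins had small differences, and none of the 5 tested was called. Krt75, of the companion layer, had the largest at -0.65 ± 0.29 (SE; adjusted p = 0.206, limma). Krt25 and Krt71 averaged 6.55 ± 0.04 and 6.01 ± 0.06 in PLKO PA and 6.69 ± 0.07 and 6.11 ± 0.03 in PLKO control (SD, n = 3 each). Krt27 was apart in all 3 experiments, by -0.18, -0.25 and -0.34, and was not called (adjusted p = 0.118, limma). Krt73 had a log2 fold change of 0.0012 ± 0.11 (SE).

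Krt80, a type II keratin found in many epithelia, had the smallest standard error of the 6 called members. It was 2.20-fold lower in PLKO PA (log2 fold change -1.14 ± 0.20, SE; 95% confidence interval -1.62 to -0.65; adjusted p = 0.0307, limma). It had 6.60, 6.50, 6.69 and 6.83 on PA arrays of VDH15-1 and 7.91, 7.86, 7.98 and 8.15 on its control arrays. In SCC25 it had 7.11, 7.04 and 7.21 in PLKO PA and 7.79, 7.80 and 8.00 in PLKO control. In VDH15-2 it had 5.26, 7.02 and 7.11 in PLKO PA and 7.88, 7.79 and 7.75 in PLKO control. All PA arrays were below all control arrays of their experiment, and Krt80 stayed called without the 3 arrays that stood apart, at a log2 fold change of -0.90. Krt79, made in the ducts of sebaceous glands, averaged 5.47 ± 0.36 in PLKO PA and 5.84 ± 0.15 in PLKO control (SD, n = 3 each; adjusted p = 0.334, limma). Krt12, of the cornea, was below the level limit, at 4.73 ± 0.11 in PLKO PA and 4.69 ± 0.01 in PLKO control (SD, n = 3 each).

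Counted by experiment, 13 keratins in VDH15-1, 15 in SCC25 and 13 in VDH15-2 had every PLKO PA array below every PLKO control array. Over all tested genes these shares were 23.1%, 19.7% and 17.1%. No keratin had every PA array above every control array in any of the 3, against 17.2%, 15.4% and 14.9% of all genes in the same order. Type I and type II members were alike in count, with 3 of 15 and 3 of 14 called lower and medians of -0.31 and -0.43.

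Some of the genes that work with keratins were also called lower. The 66 listed partners were filament linkers, cornified envelope enzymes, transcription factors of keratinocytes and hair, and keratin-associated proteins. Of these, 29 were tested, 10 were called lower on PA in PLKO tumours and none higher. Over all genes 3.27% were called lower in that comparison. The list was chosen with earlier results of these data known. Tgm3, the transglutaminase that cross-links hair and envelope proteins, averaged 7.22 in PLKO PA and 9.10 in PLKO control (log2 fold change -1.88 ± 0.15, SE; adjusted p = 0.00628, limma). Ppl and Evpl, the plakins periplakin and envoplakin that tie keratins to the cell border, had -1.74 ± 0.20 and -1.22 ± 0.17 (adjusted p = 0.0158 and 0.0201, limma). The transcription factors Grhl3, Zfp750, Grhl1, Dlx3, Ovol1 and Hoxc13 were called lower with log2 fold changes of -1.21, -0.98, -0.86, -0.54, -0.66 and -0.998. Hoxc13 is known to act on hair keratin genes, and the others on keratinocyte differentiation or hair. Tgm1, the transglutaminase of the epidermal envelope, had -0.97 and was called. None of the 8 tested keratin-associated protein genes was called, with a median of 0.02.

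Markers of other cells moved in the same comparison. Of 9 epithelial markers other than keratins, such as Cdh1 and Dsg3, all 9 had a log2 fold change below 0, 1 was called lower and the median was -0.48. Their mean level ranged from 9.02 to 10.49 over VDH15-1 PLKO PA arrays and from 10.78 to 10.89 over control arrays, and in SCC25 from 10.21 to 10.25 over PLKO PA arrays and from 10.44 to 10.48 over PLKO control arrays. In VDH15-2 it ranged from 9.92 to 10.24 over PLKO PA arrays and from 10.37 to 10.46 over PLKO control arrays. Fibroblast markers were called higher for 4 of 8 tested (median 1.64), endothelial markers for 4 of 10 (median 1.43) and macrophage markers for 2 of 8 (median 1.03). Of all 12823 genes tested, 468 were called higher and 419 lower. The fibroblast mean ranged from 10.08 to 10.30 over SCC25 PLKO PA arrays and from 8.17 to 8.37 over SCC25 PLKO control arrays. Skeletal muscle markers had a median of -0.05 with none called. Of 7 Schwann cell and glial markers with a probe set, 4 were above the level limit, with 1 called lower and a median of -0.30. The mean level of all 7 lay between 5.86 and 6.61 over the 36 arrays. The part of these cells in the keratin differences was not tested.

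In shCD36 tumours no keratin was called between PA and control, and none of the 12823 genes was (0%). At an unadjusted p under 0.05 limma gave 2 keratins, Krt31 at -0.75 ± 0.31 and Krt81 at -0.75 ± 0.30 (SE), against 2.2% of all genes in either direction and 0.951% lower. Both had their high shCD36 control arrays in VDH15-2. In limma, members called lower in PLKO tumours had values near 0 with wide intervals. Some of them were wholly lower by array in 1 experiment, as given below. Krt4 had a log2 fold change of -0.12 ± 0.41 and Krt13 of -0.08 ± 0.32, with Krt10 at 0.29 ± 0.35 (SE, n = 2 biological replicates). In SCC25 shCD36 tumours, Krt4 had 10.64, 10.54 and 10.56 on PA arrays and 10.81, 10.81 and 10.75 on control arrays, a difference of -0.21. In VDH15-2 shCD36 tumours Krt4 had 10.64, 10.57 and 10.65 on PA arrays and 10.63, 10.67 and 10.69 on control arrays.

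By array, 3 keratins in SCC25 shCD36 tumours were wholly lower on PA (8.13% of all genes) and 4 wholly higher (14.6%). The 3 were Krt4, Krt13 and Krt78, and the 4 were Krt6b, Krt16, Krt71 and Krt75. Both counts were near the shares of all genes. Krt6b had 11.23, 11.19 and 11.20 on the PA arrays and 10.58, 10.56 and 10.34 on the control arrays of SCC25 shCD36 tumours, the opposite direction to PLKO tumours of that experiment. In VDH15-2 shCD36 tumours 7 keratins were wholly lower on PA (12.3% of all genes), Krt31, Krt33b, Krt35, Krt36, Krt81, Krt84 and Krt80. Krt84, called lower in PLKO tumours, had 7.53, 7.23 and 7.59 on PA arrays and 7.92, 7.70 and 8.07 on control arrays. Krt35 had 5.93, 5.72 and 6.13 on PA arrays and 6.92, 6.86 and 6.97 on control arrays. That difference was -0.99. In PLKO tumours of VDH15-2 the Krt35 difference was -2.57 with all arrays and -0.88 without PA replicate 1.

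Set against PLKO tumours on the same PA diet, shCD36 tumours had higher means of 23 of 29 keratins, and none was called. Over all genes 0.374% were called in either direction. These limma values, here and on the control diet, came from the fit of all 11 group averages. The PLKO levels thus also drew on VDH15-1, which held no shCD36 group. For Krt15 limma gave 0.32 on PA, where the differences within SCC25 and VDH15-2 were -0.32 and 0.28. The smallest adjusted p was that of Krt10 at 0.0861, with a log2 fold change of 1.72 ± 0.33 (SE, limma; 95% confidence interval 0.92 to 2.51). At an unadjusted p under 0.05 there were 11 of 29 keratins, all higher in shCD36 tumours, against 18.4% of all genes in either direction and 9.4% higher. Of the tested partners, Tgm3 was called higher in shCD36 tumours on PA (log2 fold change 1.80 ± 0.18, SE; adjusted p = 0.0283, limma).

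Within SCC25, 15 keratins had every shCD36 PA array above every PLKO PA array (16.3% of all genes), and within VDH15-2 this held for 13 (20.5%). Krt36 had 9.54, 9.43 and 9.29 in SCC25 shCD36 PA and 4.93, 4.48 and 4.59 in SCC25 PLKO PA. Krt84 had 8.33, 8.45 and 8.36 in SCC25 shCD36 PA and 5.02, 4.44 and 4.91 in SCC25 PLKO PA. Krt23 had 7.41, 7.50 and 7.17 in SCC25 shCD36 PA and 5.69, 5.52 and 5.72 in SCC25 PLKO PA. For these 3 genes the PLKO PA arrays were the low ones of the experiment. In VDH15-2, Krt10 had 7.50, 6.93 and 6.54 in shCD36 PA and 3.66, 5.84 and 5.42 in PLKO PA, also without overlap.

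Marker lists differed between the same groups. All 9 tested epithelial markers had a log2 fold change above 0 in shCD36 over PLKO tumours on PA (median 0.38), and all 8 fibroblast and 10 endothelial markers one below 0 (medians -1.20 and -1.15), with 1 fibroblast marker called lower. The epithelial mean ranged from 10.31 to 10.44 in SCC25 shCD36 PA and from 10.21 to 10.25 in SCC25 PLKO PA, and in VDH15-2 from 10.44 to 10.48 in shCD36 PA and from 9.92 to 10.24 in PLKO PA. The fibroblast mean ranged from 8.55 to 9.26 in SCC25 shCD36 PA and from 10.08 to 10.30 in SCC25 PLKO PA. The part of these cells in the keratin differences was not tested here either.

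On the control diet no keratin was called between shCD36 and PLKO tumours (0% of all genes), and limma gave none at an unadjusted p under 0.05, against 3.39% of all genes. By array, 9 keratins in SCC25 were wholly lower in shCD36 control than in PLKO control (18% of all genes). Krt10 had 5.70, 6.75 and 6.35 in SCC25 shCD36 control and 7.46, 7.61 and 7.28 in SCC25 PLKO control. Krt6b had 10.58, 10.56 and 10.34 in SCC25 shCD36 control and 11.40, 11.32 and 11.27 in SCC25 PLKO control. Krt80 had 7.49, 7.50 and 7.47 in SCC25 shCD36 control and 7.79, 7.80 and 8.00 in SCC25 PLKO control. In VDH15-2, 4 keratins were wholly higher in shCD36 control (10.2% of all genes), Krt31, Krt81, Krt14 and Krt80, and 1 was wholly lower (9.94%), Krt15. Both counts were near the shares of all genes, and the lowest shCD36 control array of Krt80 (7.882) barely exceeded the highest PLKO control array (7.881). In limma, all 9 epithelial markers had a log2 fold change below 0 in shCD36 over PLKO tumours on the control diet (median -0.22). All 8 fibroblast and 10 endothelial markers had one above 0 (medians 0.58 and 0.29), with none called. In SCC25 the epithelial mean ranged from 10.29 to 10.33 in shCD36 control and from 10.44 to 10.48 in PLKO control. The fibroblast mean there ranged from 9.15 to 9.52 in shCD36 control and from 8.17 to 8.37 in PLKO control, and the endothelial mean from 8.72 to 8.84 in shCD36 control and from 7.84 to 8.02 in PLKO control. Their part in these differences was not tested.

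The difference of the PA effect between shCD36 and PLKO tumours was itself tested, and no keratin and no gene was called (0%). Its PLKO side also drew on VDH15-1, which held no shCD36 group. Its unadjusted p was under 0.05 for 11 of 29 keratins, all with a positive difference, against 15.7% of all genes in either direction and 8.09% with a positive one. The smallest of these p was that of Krt10, with a difference of 2.05 ± 0.45 (SE; adjusted p = 0.135, limma). Krt23 followed at 1.91 ± 0.48 (adjusted p = 0.169) and Krt80 at 1.11 ± 0.32 (adjusted p = 0.206).

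**Figure D5:**
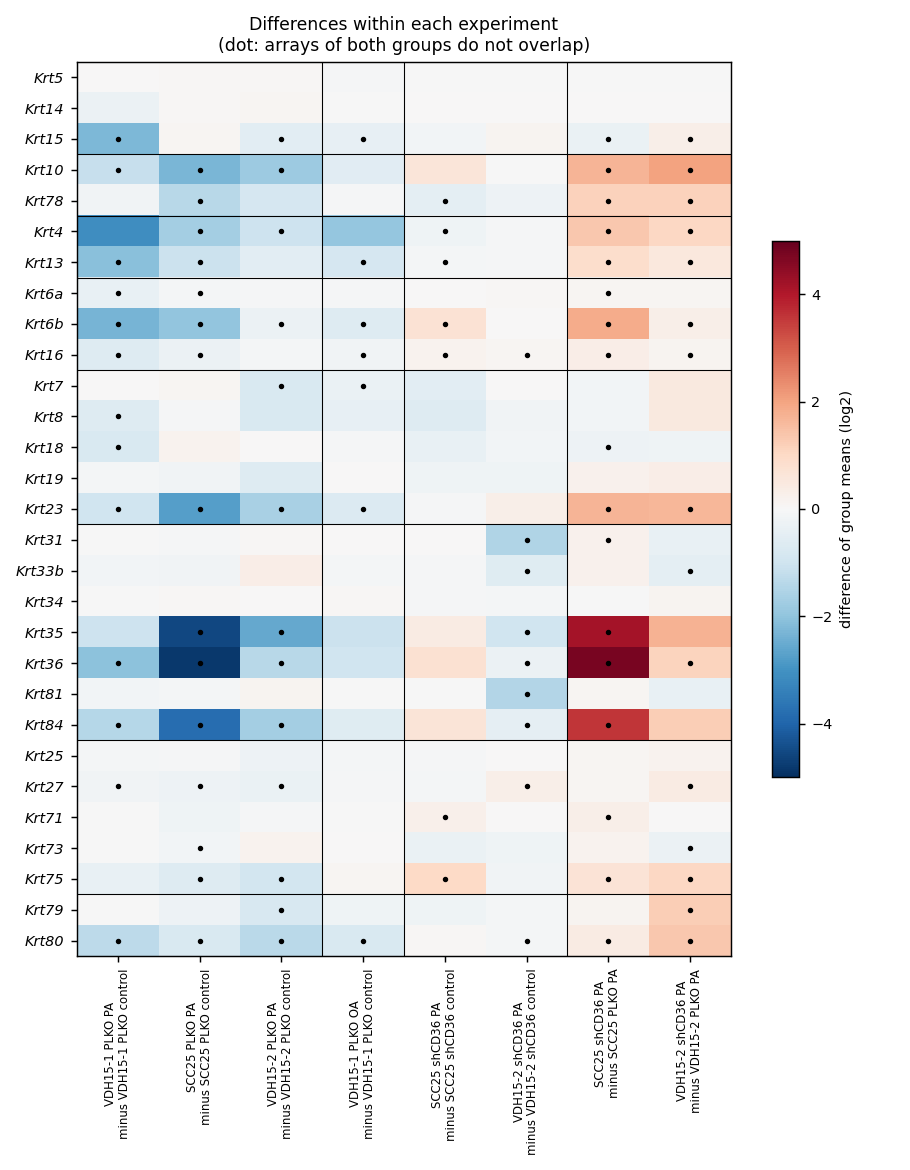
Difference of group means (colour, log2) for the 29 tested keratins (rows) in 8 comparisons within an experiment (columns), with a dot where the arrays of both groups do not overlap. Krt35, Krt36 and Krt84 are darkest blue for SCC25 PLKO PA minus PLKO control and darkest red for SCC25 shCD36 PA minus PLKO PA, and Krt5 is pale in every column.

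The oleate diet was tested in VDH15-1 only, with 1 biological replicate. Limma values for OA came from the fit of all 11 group averages, so the levels set against OA also drew on SCC25 and VDH15-2. No keratin and no gene was called between OA and control (0%), and 1 keratin had an unadjusted p under 0.05 (Krt4, log2 fold change -1.36 ± 0.53, SE; limma), against 1.75% of all genes in either direction and 1.23% lower. Within VDH15-1 the OA difference of Krt4 was -1.93. That of Krt15 was -0.42, where limma gave a log2 fold change of 0.26. By array, 7 keratins were wholly lower on OA than on control (9.06% of all genes). Krt80 had 7.22, 7.17, 7.19 and 7.32 on OA arrays and 7.91, 7.86, 7.98 and 8.15 on control arrays, so that its OA arrays lay between its PA and control arrays. Krt23 had 6.57, 6.85, 6.73 and 6.83 on OA arrays and 7.63, 7.58, 7.38 and 7.18 on control arrays. Krt13 had 11.03, 11.18, 11.49 and 11.65 on OA arrays and 11.92, 12.59, 11.79 and 12.37 on control arrays. Each of the 3 was apart on these arrays. The epithelial marker mean ranged from 10.73 to 10.78 on OA arrays and from 10.78 to 10.89 on control arrays. The endothelial mean ranged from 9.04 to 9.35 on OA arrays and from 8.15 to 8.82 on control arrays, and the fibroblast mean from 8.37 to 8.60 on OA arrays and from 8.59 to 9.06 on control arrays. Their part in the OA differences was not tested. Krt84 spread widely on OA, at 5.87, 7.66, 6.09 and 8.35, and overlapped both other diets.

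Between PA and OA no keratin was called, against 0.039% of all genes. By array, 4 keratins of VDH15-1 were wholly lower on PA than on OA (20.5% of all genes), Krt15, Krt10, Krt18 and Krt80. Krt15 had 6.98, 7.04, 8.28 and 8.26 on PA arrays and 9.28, 9.53, 9.69 and 9.41 on OA arrays, a difference of -1.84. Krt80 had 6.60, 6.50, 6.69 and 6.83 on PA arrays and 7.22, 7.17, 7.19 and 7.32 on OA arrays, a difference of -0.57. This count was below the share of all genes. Limma gave no keratin an unadjusted p under 0.05 for PA over OA, against 12.4% of all genes, with the smallest adjusted p at 0.446 for Krt6b.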

How the data were processed

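Neural-fraction RNA from 11 groups was measured on 36 mouse Affymetrix arrays. The deposited values are log2 intensities made, per the submitters' processing notes, by RMA with affy; versions are not given in the sources used here. The deposited log2 values behave as already adjusted between experiments and scan batches. In a model that also holds diet and shRNA, the experiment and scan batch terms were below 1e-06 in 100% of 45141 probe sets. Each experiment was its own hybridisation batch and held 1 cell line, so adjustment for these cannot be told apart. Array medians lay between 5.98 and 6.04 log2, and the 3 experiments, more than the number of arrays in each, limit precision. Probe sets with 1 annotated gene were used, the one with the highest mean standing for a gene, and the lowest 25% of genes by mean were left out.

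Each group was reduced to its mean array, and these 11 means entered limma 3.58.1 (R 4.3.3), modelled on condition plus experiment, with 4 residual and 2.70 prior degrees of freedom. Biological replicate numbers mark the experiment, so the experiment term is the pairing block of the main fit. The 7 contrasts were adjusted by Benjamini-Hochberg over 12823 genes. Replicates are labelled technical within a group, so p-values measure the spread between experiments. The fit was tested on simulated data.

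The members, classes, partners and marker lists were chosen with earlier results of these data known. Every member could be named; members called in any contrast, the 2 highest of each class and the known pairs were given by array or group, and the rest by range and count. Of the partners, called members and the 4 with the smallest p were named. Alternatives were another probe set rule, other filters, no replicate block, all arrays with duplicateCorrelation, fewer groups, single scan batches, median centring, and leaving out arrays or experiments.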

Additional observations from a re-analysis of the deposited data

Results flagged for a closer look

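In groups of 4 arrays, 87 sets of keratin values were examined for an array far from the other 3, and chance alone picks about 1 in 20 such sets. Krt36 was at 7.28 on VDH15-1 PLKO PA replicate 3, against 6.07 to 6.19 on the other 3 arrays. Krt33b was at 5.81 on VDH15-1 PLKO OA replicate 4, against 5.64 to 5.66 on the others.

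In SCC25, 3 keratins had every PA array above every control array in shCD36 tumours and every PA array below every control array in PLKO tumours. The difference of means was 0.71 in shCD36 and -1.99 in PLKO tumours for Krt6b, 0.17 and -0.31 for Krt16, and 1.01 and -0.65 for Krt75. In VDH15-2, Krt27 did the same, with 0.28 in shCD36 and -0.34 in PLKO tumours. These differences within an experiment were not tested, and the test over experiments called no keratin. Over all genes in SCC25, 14.6% were wholly higher on PA in shCD36 tumours and 19.7% wholly lower in PLKO tumours. In VDH15-2 these shares were 8.03% and 17.1%. The share of all genes that did both was not counted.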

How the results depend on the processing

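For PA over control in PLKO tumours, 6 keratins were called, all lower. The count was 15 with no replicate block and 14 with all arrays and duplicateCorrelation, which include all 6, while 3001 and 3052 genes were called in place of 887. It was 0 with the groups of the contrast alone (34 genes called) and 2 without the 3 arrays that stood apart. It ranged from 0 to 8 when an array or an experiment was left out, with 0 without SCC25 and 0 without VDH15-2, where no gene was called, and 2 without VDH15-2 PLKO PA replicate 1. For shCD36 over PLKO on PA, 0 keratins became 8 with no replicate block, 7 with duplicateCorrelation, 1 with scan batch 2 of VDH15-1 alone, and from 0 to 2 over the leave-outs, with 2 without VDH15-1. The difference of both PA effects gave 2 with no replicate block and 4 with duplicateCorrelation. Class medians for PA over control in PLKO tumours moved with the filter, which changes the members: to -0.45 for suprabasal and -0.37 for other keratins with no filter, and to -0.995 for simple, -2.54 for hair and tongue and -1.14 for other keratins with the lowest 50% of genes left out. That filter left no inner root sheath keratin. The hair and tongue median ranged from -0.25 to 0.026 over the leave-outs and was -0.15 without VDH15-2. The basal median, -0.05, was 0.04 without the 3 arrays that stood apart, and the hair and tongue median, -0.04, was also 0.04 there. For the 6 called keratins and 8 others, 696 values were computed under alternatives, most of which left out 1 array. Of these values, 622 kept their direction and side of the threshold, 37 were no longer called, 37 became called and 0 reversed. The 37 lost calls all fell on the 6 called keratins. For the 8 others, staying uncalled counted as the same side. The OA contrasts could not be fitted with their groups alone. The causes were not tested. With 4 residual degrees of freedom, and signal near background for the lowest keratins, small differences were not detectable. Compression of differences for the highest keratins was not tested.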
